A study of Papio anubis with 28 samples.

Results

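HOX genes encode homeodomain transcription factors. The 36 genes described here were all rows of the deposited table whose symbol was HOX, a cluster letter from A to D and a number, out of 27533 rows in all. They comprised 11 genes of the HOXA cluster, 9 of HOXB, 9 of HOXC and 7 of HOXD. HOXB2, HOXD8 and HOXD11 had no row under those symbols and were not analysed here. A filter on low counts was passed by 35 of the 36 genes. HOXC12 did not pass, with 1 read in 1 library.

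In mammals the HOX genes lie in 4 clusters on separate chromosomes, and genes at the same place in different clusters carry the same number and are called paralogues. Low numbers lie at the 3′ end of a cluster and are active first and towards the head of the embryo, while high numbers lie at the 5′ end and are active later and towards the tail. Adult mesenchyme keeps much of this pattern, so that the set of HOX genes transcribed in a tissue differs along the body axis. The bladder arises from the hind end of the gut tube, where the highest-numbered genes, above all HOXA13 and HOXD13, are needed for hindgut and urogenital development. The ileum arises from the midgut.

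The study examined urinary bladders of olive baboons (Papio anubis), all labelled wild type, after part of the wall had been replaced by a graft. The Entero arm held 5 animals that received a graft of ileum, the operation called enterocystoplasty. The SIS arm held 5 animals and the PRS arm 4 animals, and in both the graft was a scaffold seeded with bone marrow mesenchymal stromal cells and CD34+ haematopoietic stem and progenitor cells, sampled as regenerated tissue. Each of the 14 animals gave 1 library of native bladder and 1 of the graft, so that the native bladders came from operated animals too. The sources used here give no ages, no time since surgery, no sampled part of each organ and no meaning for PRS. Ungrafted ileum was not analysed here, so a level typical of ileum and a level changed by grafting cannot be told apart. The libraries were made from pieces of whole tissue, in which fewer cells of a type and less RNA per cell cannot be told apart.

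Library totals ran from 20975648 to 35669026 reads. A gene with no read in the 5 ileum libraries lay below 0.0237 CPM (counts scaled to a library total of 1e+06) over that group, by the limit of 3 counts that a count of 0 allows. The grafts of ileum carried markers of intestinal epithelium, whose 8 genes summed to 1489 to 5893 CPM against 4.80 to 35.5 CPM in the native bladders of the same animals. The 8 measured markers of urothelium, the lining of the bladder, summed to 16.8 to 91.6 CPM in the ileum and to 600 to 7868 CPM in those native bladders. Markers of smooth muscle varied widely inside every group, between 4120 and 88849 CPM in the ileum and between 2620 and 85245 CPM over the native bladders. Library 2 of the SIS regenerated tissue stood apart from the others. Its best correlation with any other library was 0.903 over log2 values, against 0.943 or more for every other library outside the ileum group. Native library 4 and regenerated library 4 of the PRS arm carried OLFM4, a gene of intestinal crypts, at 1435 and 1149 CPM. The 8 markers of intestinal epithelium, OLFM4 among them, summed to 1452 and 1162 CPM there. In libraries 1 to 3 of the PRS arm they summed to 4.74 to 6.56 CPM in native bladder and 2.52 to 43.4 CPM in regenerated tissue.

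In native bladder the HOX transcripts with the highest mean levels were those of HOXA9, HOXA10, HOXA11, HOXA13 and HOXD13. Levels of different genes are compared here per kilobase, as CPM divided by the gene length that the table gives. HOXA10 had the highest mean, 62.1 ± 23.1 CPM per kilobase (SD, n = 14), but its gene model holds only 282 bases and 21 of the 36 models have a length that is a multiple of 3, so that models may leave out untranslated ends and levels per kilobase are uncertain. HOXA13 followed at 15.6 ± 4.81, HOXA9 at 15.4 ± 3.87, HOXD13 at 15.3 ± 13 and HOXA11 at 14.6 ± 7.21 CPM per kilobase, differences smaller than their spread. HOXB6 led its cluster at 12.1 ± 11 and HOXC4 led HOXC at 3.22 ± 2.06 CPM per kilobase. Within HOXA the means of the genes 9, 10, 11 and 13 were above those of all members numbered 2 to 7. HOXD did not have this order. HOXD4 at 8.01 ± 5.90 and HOXD1 at 6.77 ± 3.91 had higher means than HOXD10 at 5.81 ± 3.57 and HOXD9 at 4.87 ± 2.26 CPM per kilobase. The median of HOXD13, 8.58 CPM per kilobase, lay below those of HOXA5 (9.57) and HOXB6 (8.86). The lowest of the 36 after HOXC12 were HOXB1, HOXD12, HOXC8, HOXC13 and HOXC11, each below 0.4 CPM per kilobase on average.

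The ileum graft had another order. HOXC6 was highest at 25.3 ± 12.1 CPM per kilobase (SD, n = 5), ahead of HOXB6 at 16.9 ± 14.9, HOXC4 at 14 ± 9.02, HOXB3 at 13.1 ± 9.72, HOXB9 at 12.4 ± 9.16 and HOXC8 at 11.6 ± 6.81. These neighbours in the order overlapped widely. Genes that overlap may share reads, which makes their levels uncertain. In the RefSeq annotation of the baboon assembly Panubis1.0, where all 36 genes matched by symbol, 6 pairs overlap, among them HOXC6 with HOXC8, HOXC4 with HOXC5, and HOXA3, HOXA4 and HOXA5 with each other. The sources used here do not give the strand setting of the counting, and reads of HOXA11 and of its antisense transcript cannot be told apart.

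No read of HOXC12, HOXC13, HOXD10, HOXD12 or HOXD13 was counted in any of the 5 ileum libraries, whereas 12 of the 36 genes had reads in all 28 libraries of the study.

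**Figure D1:**
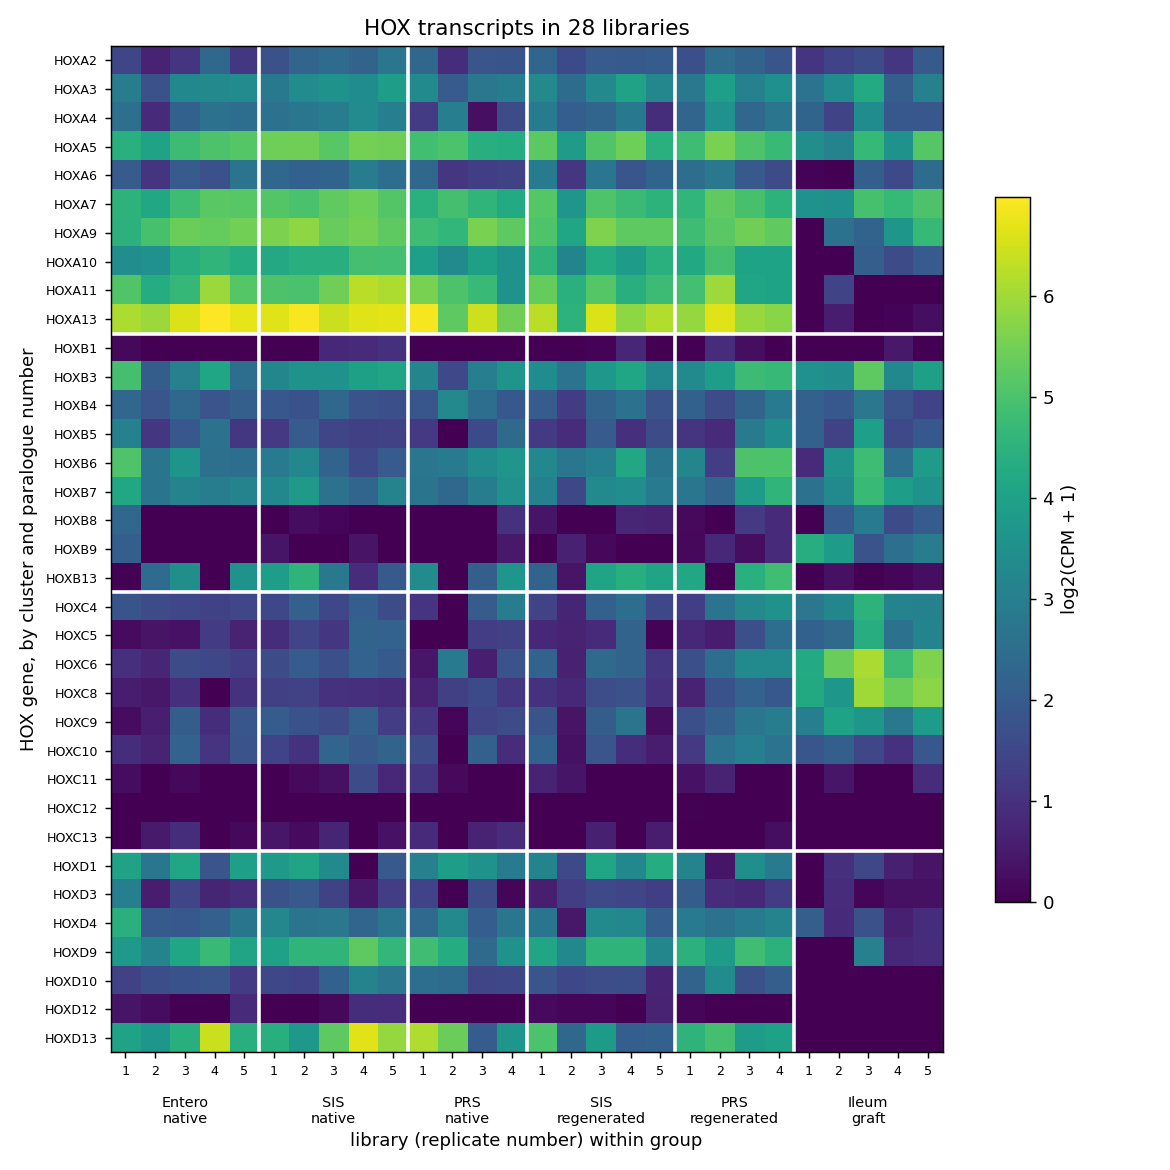
Levels of 35 HOX genes in every library, as log2(CPM + 1), with genes ordered by cluster and paralogue number down the vertical axis and libraries grouped by arm and tissue along the horizontal axis. Brighter cells are higher. The ileum libraries are dark for HOXA11, HOXA13 and the high-numbered HOXD genes and bright for HOXC6 and HOXC8, and the regenerated libraries are bright for HOXA11 and HOXA13 as the native ones are.

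The first comparison asked how bowel placed in the bladder differed from the bladder wall of the same animals. Of the 35 HOX genes tested, 5 were higher and 11 lower in the ileum graft at an adjusted p under 0.05 in edgeR's quasi-likelihood test, and 19 did not pass. Over all 17177 genes tested 15% passed, 7.72% higher and 7.33% lower. All 5 genes that rose were HOXC members (HOXC4, HOXC5, HOXC6, HOXC8 and HOXC9). Among those that fell were HOXA9, HOXA10, HOXA11 and HOXA13, HOXB13, and HOXD1, HOXD4, HOXD9, HOXD10 and HOXD13. The median log2 fold change was -0.60 in HOXA, 0.45 in HOXB, 2.62 in HOXC and -3.91 in HOXD (-3.58 with the HOXD genes that had no read in ileum at their bound from 3 counts), against -0.03 over all genes tested.

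Read by paralogue number, the genes numbered 11 to 13 gave 4 lower and 0 higher of 7 tested, and those numbered 9 and 10 gave 4 lower and 1 higher of 7. Of 10 tested genes numbered 5 to 8, 3 were higher and 0 lower. Of 11 tested genes numbered 1 to 4, 1 was higher and 3 lower. In HOXA, HOXA2 to HOXA7 did not pass, with log2 fold changes between -0.60 and 0.28, and every member from HOXA9 on fell. HOXD1 and HOXD4, low-numbered members of HOXD, were also among the genes that fell.

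HOXA13 (ENSPANG00000020537), a gene of the hind end of the body needed for hindgut and urogenital development, had 69.0, 59.5, 97.2, 125.1 and 103.8 CPM in the native bladders of Entero animals 1 to 5. In their ileum grafts it had 0, 0.451, 0, 0.0475 and 0.200 CPM. Every native library was over 50 CPM and every ileum library below 1, with no overlap. The log2 fold change was -9.31 (SE 0.68, edgeR adjusted p 2.22e-09).

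HOXA11, which acts with HOXA13 in the limb and the urogenital tract, had 32.9, 18.8, 23.8, 59.8 and 34.2 CPM in native bladder. Its ileum values were 0, 1.70, 0, 0 and 0 CPM. The only reads in the ileum group came from animal 2, and the groups did not overlap. The log2 fold change was -6.63 (SE 0.96, edgeR adjusted p 2.69e-05). Without ileum library 2 the group held no read, and the native level was at least 1257-fold higher, with 3 counts over the other 4 ileum libraries in place of 0.

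HOXA10, a gene of the uterus and the lumbar region, gave 9.75, 10.5, 19.3, 22.9 and 19.0 CPM in native bladder and 0, 0, 3.36, 2.00 and 3.04 CPM in ileum. All native values lay above all ileum values. Its log2 fold change was -3.27 (SE 0.73, edgeR adjusted p 0.0028). HOXA9 had native values of 21.4, 29.9, 41.9, 39.5 and 43.8 CPM and ileum values of 0, 5.06, 3.65, 11.8 and 24.7 CPM. Ileum library 5 reached the native range, so that the groups overlapped, although HOXA9 was lower in the graft of 5 of 5 animals (log2 fold change -1.96, SE 0.64, edgeR adjusted p 0.0393). This call was lost in 6 of 10 runs without 1 library, with adjusted p up to 0.0913. HOXA7, next to HOXA9 on the 3′ side, had 11, 10.3, 29.9, 24.8 and 31.6 CPM in ileum against 21.8, 17.0, 27, 35.5 and 35.1 CPM in native bladder. Those ranges overlapped, and its log2 fold change of -0.34 (95% interval -0.99 to 0.31) did not pass.

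**Figure D2:**
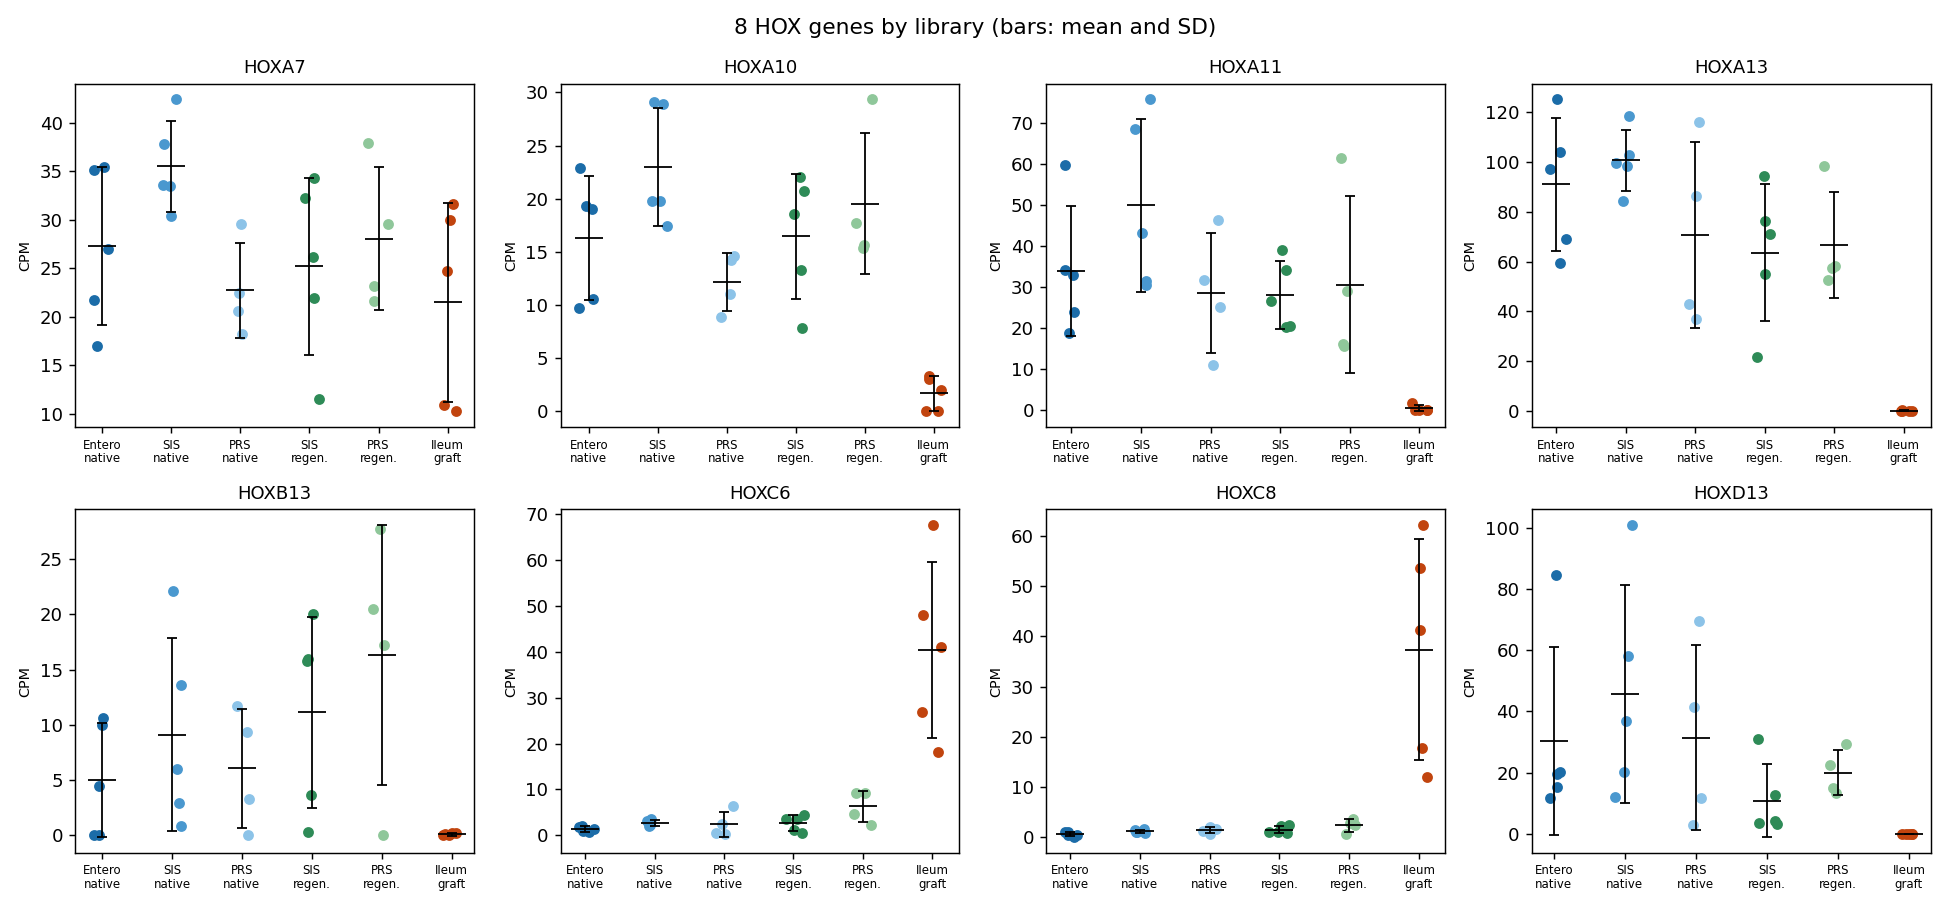
CPM of HOXA7, HOXA10, HOXA11, HOXA13, HOXB13, HOXC6, HOXC8 and HOXD13 in each library (points), by group along the horizontal axis, with bars for mean and SD. In the ileum group HOXA13 stays below 1 CPM and HOXD13 at 0, HOXC6 and HOXC8 reach 18.1 to 67.7 and 12 to 62.2 CPM, and HOXA7 overlaps between all groups.

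In the HOXD cluster the high-numbered genes were not detectable in ileum. HOXD13 (ENSPANG00000012770), a gene of digits, hindgut and genitalia, had 15.3, 11.7, 19.6, 84.7 and 20.3 CPM in native bladder and 0 reads in all 5 ileum libraries. Its 4051 native reads gave a level at least 1343-fold higher than in ileum, with 3 counts over the ileum group in place of 0 (edgeR adjusted p 8.06e-06). HOXD10 had 1.55, 2.18, 2.38, 2.61 and 1.35 CPM in native bladder and 0 in every ileum library, at least 93.1-fold lower in ileum (edgeR adjusted p 1.3e-06). For both genes the separation was complete. HOXD12 and HOXC13 also had no read in ileum but were so low in native bladder, at most 0.872 CPM, that their adjusted p of 0.0684 and 0.0693 in edgeR did not pass.

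HOXD9 gave 12.6, 7.67, 16, 25.3 and 15.9 CPM in native bladder and 0, 0, 7.25, 0.760 and 0.848 CPM in ileum. Ileum library 3 came close to native library 2 without reaching it (log2 fold change -3.12, SE 0.85, edgeR adjusted p 0.0131), and without that ileum library the log2 fold change was -5.25. HOXD1, at the 3′ end of its cluster, gave 15.3, 5.66, 16.4, 2.57 and 14.2 CPM in native bladder against 0, 0.952, 1.80, 0.523 and 0.299 CPM in ileum. Its groups did not overlap, and the log2 fold change was -3.91 (SE 1.07, edgeR adjusted p 0.0126), with an adjusted p of 0.0659 when the animal was fitted as a block. Markers of urothelium, with which HOXD1 varied across native bladders, summed to 16.8 to 91.6 CPM in ileum and to 600 to 7868 CPM in native bladder. Their part in the fall of HOXD1 was not tested. The HOXD4 call was lost without native library 1 or without ileum library 2, 4 or 5. Its native values were 20.6, 2.96, 2.82, 3.42 and 5.53 CPM, its ileum values 3.32, 0.802, 2.34, 0.523 and 0.898 CPM, and without native library 1 the log2 fold change moved from -2.16 (edgeR adjusted p 0.0261) to -1.23 (adjusted p 0.199).

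The HOXB cluster was the least different between the tissues, with 1 of 9 genes passing. HOXB13, which is known from prostate and hindgut, had 0.0361, 4.44, 9.95, 0 and 10.7 CPM in native bladder and 0, 0.251, 0, 0.0951 and 0.200 CPM in ileum. Native libraries 1 and 4 were as low as ileum, so the groups overlapped. Its log2 fold change was -5.47 (SE 1.70, edgeR adjusted p 0.0289), with an adjusted p of 0.102 under the animal block and the call lost in 6 of 10 runs without 1 library. HOXB6, the leading HOXB gene of native bladder, had 32.0, 5.37, 11.3, 4.92 and 4.72 CPM there and 0.804, 10.8, 27.1, 4.80 and 13.5 CPM in ileum, overlapping ranges with a log2 fold change of -0.03 (95% interval -1.53 to 1.46). HOXB9, the neighbour of HOXB13 in this table, was higher in the ileum of 5 of 5 animals, with 19.3, 13.2, 2.43, 4.85 and 6.79 CPM against 3.32, 0, 0, 0 and 0 CPM. Its log2 fold change of 3.80 did not pass (edgeR adjusted p 0.141) but did in the fit blocked by animal (8.03, adjusted p 0.0252).

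The HOXC genes with the largest rise, HOXC8 and HOXC6, were low in native bladder. HOXC8 (ENSPANG00000003389), a gene of the thoracic region, had 0.434, 0.378, 0.952, 0 and 1.04 CPM in native bladder and 17.8, 12, 62.2, 41.2 and 53.7 CPM in ileum. The lowest ileum library exceeded the highest native one by a wide margin (log2 fold change 6.05, SE 0.76, edgeR adjusted p 5.29e-06). HOXC6 (ENSPANG00000018054) rose from 0.903, 0.668, 2.10, 1.84 and 1.47 CPM to 18.1, 41, 67.7, 26.9 and 48.1 CPM, again with no overlap (log2 fold change 4.85, SE 0.72, edgeR adjusted p 3.49e-05).

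The other HOXC genes that passed changed less. HOXC9 had 0.181, 0.494, 3.17, 0.884 and 2.63 CPM in native bladder and 6.99, 15.6, 11.8, 5.94 and 13.3 CPM in ileum (log2 fold change 2.86, SE 0.82, edgeR adjusted p 0.0177). HOXC4, the leading HOXC gene of native bladder, had 2.53, 2.00, 1.82, 1.61 and 1.78 CPM there and 5.78, 8.22, 21.9, 7.70 and 7.43 CPM in ileum. Every ileum library was above every native one for both genes. HOXC5 rose by 3.90 (SE 1.15, edgeR adjusted p 0.0215) and HOXC4 by 2.38 (SE 0.77, edgeR adjusted p 0.0371) on the log2 scale, and HOXC5 did not overlap between groups either. HOXC4 did not pass in the fit blocked by animal (adjusted p 0.0865), and both lost their call when ileum library 3, the highest for each at 21.9 and 19.3 CPM, was left out. Native libraries decided these calls too, any of the 5 for HOXC4 and libraries 1, 2 or 3 for HOXC5. HOXC10, with 0.867, 0.581, 3.61, 1.08 and 2.47 CPM in native bladder and 2.61, 3.31, 1.80, 0.998 and 2.69 CPM in ileum, did not pass (log2 fold change 0.41, 95% interval -1.31 to 2.13). HOXC11, with 1.93, did not pass either, so that in HOXC the last gene to pass towards the 5′ end was HOXC9.

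**Figure D3:**
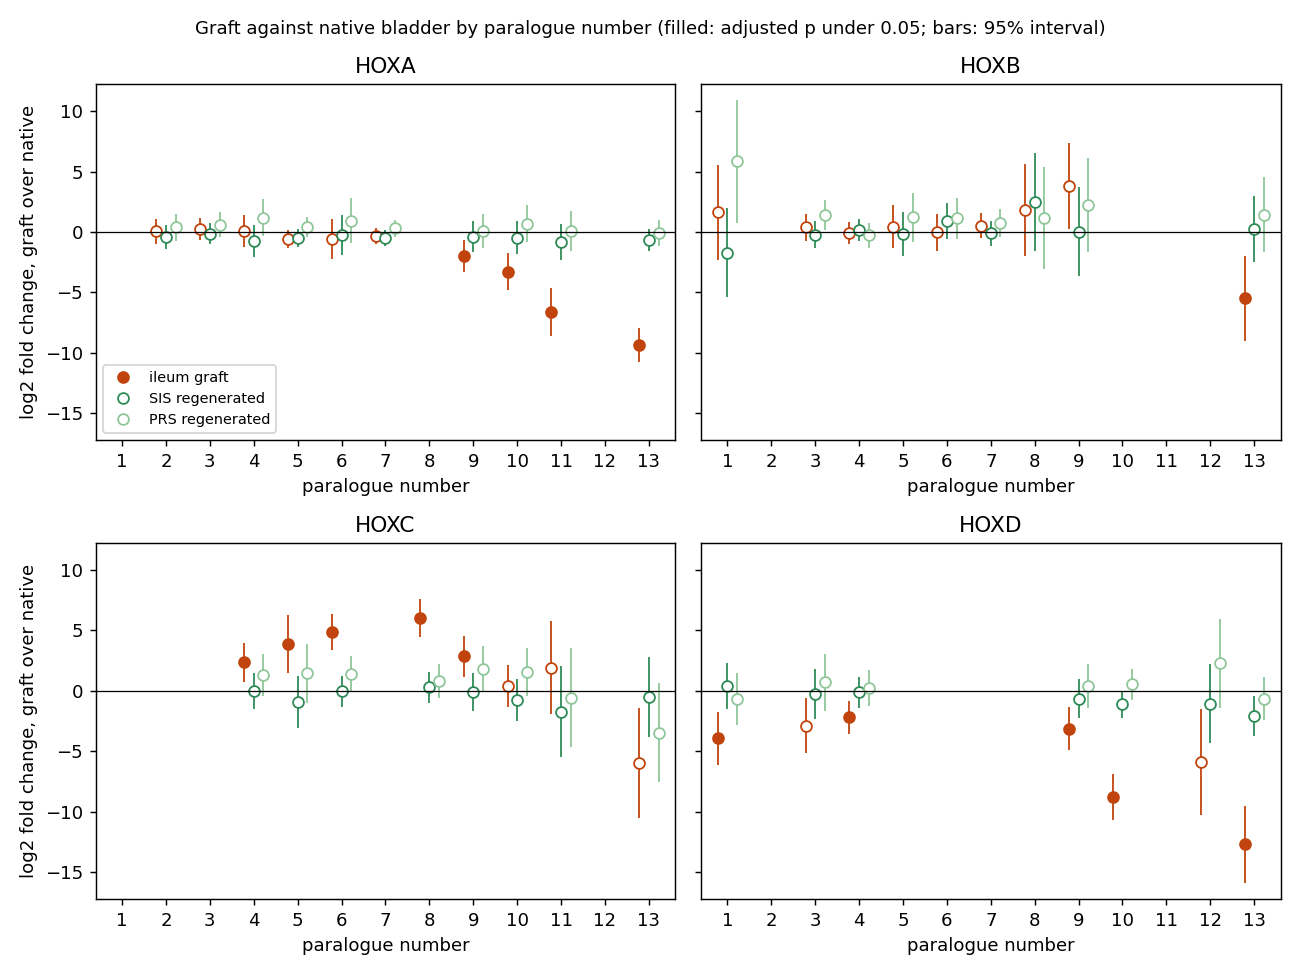
Log2 fold change of graft against native bladder for HOX genes by paralogue number, 1 panel per cluster and 1 colour per arm, with 95% intervals and filled points where the edgeR adjusted p was under 0.05. Filled points occur only for ileum, above 0 in HOXC and below 0 in HOXA, HOXB and HOXD.

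Among the 35 genes tested 5 had every ileum library above every native one, 7 the reverse, and 23 overlapped, where 5.52% of all genes tested lay wholly above and 5.86% wholly below. The calls for HOXA10, HOXA11, HOXA13, HOXC6, HOXC8, HOXC9, HOXD1, HOXD9, HOXD10 and HOXD13 held in each run without 1 Entero library. With only the 2 groups compared in the fit, 5 of the 11 lower genes passed, so not every lower gene named here did. Beside these differences, the fibroblast markers DCN and LUM fell by 2.63 and 1.71 on the log2 scale (edgeR adjusted p 0.0014 and 0.0308), and the part of fibroblast content in the HOX differences was not tested. The summed fibroblast markers (5 of 5 measured) ran from 743 to 3517 CPM in ileum against 2172 to 11862 CPM in the native bladders of the same animals. None of the 5 smooth muscle markers measured passed. The ileum libraries with the most muscle, 3, 4 and 5 at 88849, 35710 and 32512 CPM, had 0, 0.0475 and 0.200 CPM of HOXA13. Across native bladders the relation of HOXA13 with these markers did not pass, while those of HOXA11, HOXD9, HOXD10 and HOXD13 passed by Pearson's r. The parts of muscle and of urothelium content in the HOX differences were not tested. Summed markers of endothelium (3 of 3, 115 to 403 CPM in ileum), blood cells (6 of 6, 108 to 1072 CPM) and nerve (5 of 5, 4.16 to 118 CPM) overlapped with native bladder.

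A position index gave each library's mean paralogue number, weighted by the level per kilobase of each HOX gene. It was 6.14 ± 0.28 in the ileum graft (SD, n = 5, range 5.65 to 6.36) and 8.05 ± 0.93 in the native bladder of the same arm (n = 5, 6.53 to 9.01). All 5 ileum libraries lay below all native ones of the arm. Without HOXA10, whose gene model is short, native library 1 had 6.01 and lay inside the ileum range of 5.46 to 6.21, so that the groups overlapped. Within HOXA the index was 5.69 ± 1.12 in ileum and 9.0 ± 0.33 in native bladder, and within HOXD 3.94 ± 0.73 and 7.35 ± 2.23. Within HOXB it was 6.16 ± 0.61 and 6.05 ± 1.04, and within HOXC 6.27 ± 0.24 and 6.43 ± 0.98, differences smaller than the spread. As a share of the summed HOX level per kilobase, HOXC took 38.2 ± 3.46% in ileum and 2.92 ± 0.94% in native bladder, and genes 11 to 13 took 0.340 ± 0.461% and 20.5 ± 6.43%. The index is a description of chosen genes and carries no test.

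The comparison of regenerated tissue with native bladder asked whether tissue formed on the seeded scaffolds differed from the native bladder of the same arm. No HOX gene passed in the SIS arm, in the PRS arm or over both arms, and 0% of all genes tested passed in any of these edgeR comparisons. At an unadjusted p under 0.05 edgeR gave 1 of 35 HOX genes in the SIS arm, 3 in the PRS arm and 1 over both, where 4.86%, 3.62% and 4.98% of all genes had such a p. DESeq2, run as an alternative, called 0 HOX genes in each and 0.343%, 0.143% and 0.288% of all genes. These intervals stay wide, so a failure to pass does not show that the tissues were alike.

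HOXA13 had 99.3, 118, 84.2, 98.4 and 103 CPM in SIS native bladder and 76.1, 21.6, 94.4, 54.9 and 70.9 CPM in SIS regenerated tissue. Library 2 of the regenerated tissue, the one that stood apart, was lowest, and the ranges overlapped (log2 fold change -0.66, 95% interval -1.60 to 0.28). In the PRS arm HOXA13 had 116, 37.1, 86.2 and 42.9 CPM in native bladder and 57.5, 98.4, 58.2 and 52.6 CPM in regenerated tissue, a log2 fold change of -0.08 (95% interval -1.12 to 0.96). Every regenerated library of both arms had at least 21.6 CPM of HOXA13.

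HOXD13 gave the lowest unadjusted p in the SIS arm. It had 20.2, 12.1, 37.0, 101 and 58.2 CPM in native bladder and 31.0, 4.11, 12.9, 3.21 and 3.53 CPM in regenerated tissue. It was lower in 4 of 5 animals and the ranges overlapped (log2 fold change -2.06, 95% interval -3.70 to -0.41, unadjusted p 0.0166, edgeR adjusted p 0.901). In the PRS arm the values were 69.5, 41.6, 3.07 and 11.6 CPM against 22.4, 29.3, 13.3 and 15 CPM, lower in 2 of 4 animals (log2 fold change -0.65, 95% interval -2.43 to 1.12). Smooth muscle markers, with which HOXD13 varied across native bladders, summed to 10849 to 85245 CPM in SIS native bladder and 7885 to 45948 CPM in SIS regenerated tissue, and their part in this difference was not tested.

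In the PRS arm 29 of 35 tested HOX genes had a positive log2 fold change, with a median of 0.71. In the SIS arm 9 of 35 did, with a median of -0.28. Of all 17177 genes tested 8906 were positive in the PRS arm and 9022 in the SIS arm, with medians near 0. For PRS against SIS native bladder, 27 of 35 HOX genes had a negative log2 fold change (median -0.58), as did 8674 of all genes tested. The part of this native difference in the 2 graft changes was not tested. HOXC9 had every regenerated library above every native one, with 1.13, 0.0815, 1.73 and 2.06 CPM in PRS native bladder and 2.29, 3.39, 5.64 and 6.78 CPM in regenerated tissue (log2 fold change 1.85, 95% interval 0.01 to 3.68, edgeR adjusted p 1). HOXA10 was the other HOX gene whose PRS groups did not overlap, where 1.20% of all genes tested did not (1.14% in the SIS arm, with no HOX gene). It had 14.3, 8.85, 14.6 and 11 CPM against 17.7, 29.4, 15.4 and 15.6 CPM (log2 fold change 0.68, 95% interval -0.86 to 2.22). HOXB3 had 7.97, 1.92, 6.94 and 11.2 CPM against 9.11, 13.7, 26.7 and 24.8 CPM, higher in 4 of 4 animals (log2 fold change 1.41, unadjusted p 0.0283, edgeR adjusted p 1). HOXB1, a gene of the hindbrain that was nearly absent throughout, had 27 reads in 2 PRS regenerated libraries and 0 reads in PRS native bladder, at least 9.53-fold higher with 3 counts over the native group in place of 0 (unadjusted p 0.0261 in edgeR, adjusted p 1).

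The position index was 8.46 ± 0.46 in SIS native bladder and 7.86 ± 0.37 in SIS regenerated tissue (SD, n = 5 each), ranges of 8.08 to 9.13 and 7.26 to 8.25 that overlapped. In the PRS arm it was 8.07 ± 0.67 and 7.87 ± 0.66 (n = 4 each). Every regenerated library, from 7.24 upwards, lay above the highest ileum library at 6.36. Genes 11 to 13 took 23.0 ± 3.31% of the summed level in SIS native bladder and 16.8 ± 2.02% in SIS regenerated tissue, with the 5 regenerated libraries (14.1 to 18.6%) below the 5 native ones (20.4 to 28.3%). In the PRS arm they took 21.6 ± 8.94% (14.8 to 34.3%) and 16.3 ± 3.76% (12.6 to 20.5%), which overlapped. HOXC took 3.86 ± 0.45% and 3.98 ± 1.63% in the SIS arm, and 4.71 ± 2.57% and 7.23 ± 3.43% in the PRS arm.

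**Figure D4:**
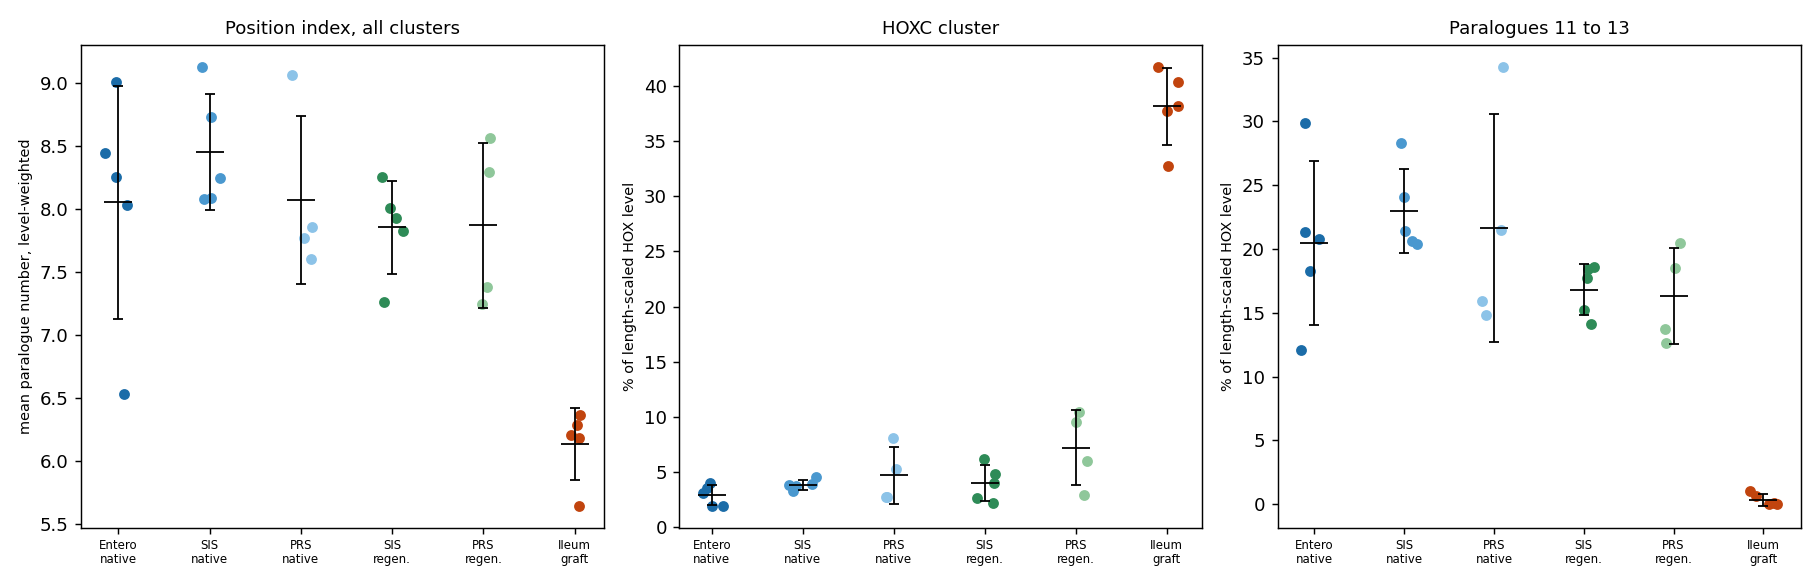
Position index (mean paralogue number weighted by CPM per kilobase) and shares of the summed HOX level by group, with 1 point per library and bars for mean and SD. The ileum libraries have the lowest indices, 5.65 to 6.36, and regenerated tissue lies at 7.24 to 8.56.

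Regenerated tissue and ileum graft came from different animals, and the 2 comparisons below share the ileum libraries with each other and with the comparison above. In SIS regenerated tissue 10 of 35 HOX genes tested were higher and 4 lower than in ileum (edgeR, where 21.1% of all genes passed, 10.9% higher and 10.2% lower). In PRS regenerated tissue 9 were higher and 2 lower (14% of all genes, 7.21% higher and 6.75% lower). HOXA13 was higher by 8.79 (SE 0.67, edgeR adjusted p 2.78e-09) in SIS and by 8.86 (SE 0.68, edgeR adjusted p 7.92e-09) in PRS regenerated tissue on the log2 scale. HOXA11 was higher by 6.36 and 6.48, HOXA10 by 3.29 and 3.53, HOXA9 by 1.92 and 1.98, HOXB13 by 6.62 and 7.17, and HOXD9 by 3.12 and 3.55. HOXD13 was at least 510-fold higher than in ileum in SIS and at least 833-fold in PRS regenerated tissue, and HOXD10 at least 87.9-fold and 191-fold, by the limit of 3 counts over the ileum group.

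HOXC6 was lower by 3.91 in SIS (-3.91, SE 0.68, edgeR adjusted p 0.000187) and by 2.67 in PRS regenerated tissue (-2.67, SE 0.70, adjusted p 0.0117), and HOXC8 by 4.69 (-4.69) and 3.99 (-3.99). HOXC6 had 3.66, 0.561, 4.35, 3.65 and 1.16 CPM in SIS and 2.29, 4.75, 9.20 and 9.15 CPM in PRS regenerated tissue, all below the lowest ileum value. HOXD1 (3.90), HOXB9 (-6.14) and HOXC9 (-2.21) passed in the SIS comparison but not for PRS, and HOXD4 (2.03) in the PRS comparison but not for SIS, and whether the scaffolds differed for these was not tested. Without SIS regenerated library 2 the counts were 11 higher and 3 lower, with HOXC9 no longer passing (adjusted p 0.0954). Leaving out single libraries also ended the call of HOXA9 in 5 of 10 runs for SIS and 7 of 9 for PRS, of HOXB9 in 4 of 10 and HOXC9 in 7 of 10 for SIS, and of HOXD4 in 7 of 9 for PRS.

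Setting the level of each graft group against that of its arm's native bladders gave a direct test of whether the arms changed differently. The test did not pair libraries by animal, except where the animal was fitted as a block. Between SIS and Entero 4 HOX genes had a higher change and 2 a lower one, where 6.56% of all genes passed, 3.59% higher and 2.97% lower. The difference in log2 change was 8.65 for HOXA13 (SE 0.78, edgeR adjusted p 2.26e-07), 5.80 for HOXA11, 7.68 for HOXD10 and 10.64 for HOXD13, and -4.90 for HOXC6 and -5.75 for HOXC8. DESeq2 called 7 HOX genes with a higher and 4 with a lower change, and 5.37% and 5.15% of all genes. Between PRS and Entero 5 genes had a higher change and 2 a lower one, where 3.47% of all genes passed, 1.56% higher and 1.91% lower. These were HOXA10 (3.96), HOXA11 (6.72), HOXA13 (9.23, SE 0.83, edgeR adjusted p 5.02e-07), HOXD10 (9.33), HOXD13 (12.05), HOXC6 (-3.44) and HOXC8 (-5.22). The fitted differences of HOXD10 and HOXD13 rest on an ileum group with no reads and are not measured sizes. With the animal as a block HOXC6 did not pass in the PRS test (-2.70, adjusted p 0.191) and HOXD9 did (5.57, adjusted p 0.0465). Of 18 runs without 1 library the PRS test of HOXC6 lost its call in 10 and that of HOXA10 in 7. Without PRS native library 2 neither HOXC6 (-2.31, adjusted p 0.166) nor HOXA10 (3.84, adjusted p 0.0623) passed.

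The native bladders of the 3 arms were set against each other as a background. No HOX gene passed between any 2 arms and 0% of all genes did in edgeR. At an unadjusted p under 0.05 edgeR gave 2 HOX genes between SIS and Entero, 1 between PRS and Entero and 2 between PRS and SIS, where 4.14%, 2.15% and 7.02% of all genes had such a p. DESeq2 called 0 HOX genes in each and 0.311%, 0.164% and 0.572% of all genes. Over the 14 native libraries the spread was narrower in HOXA9 (21.4 to 54.3 CPM) and HOXA7 (17.0 to 42.4 CPM) than in HOXD13 (3.07 to 101 CPM).

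Across the 14 native bladders several HOX genes varied with markers of smooth muscle or of urothelium. For each of 35 genes the log2(CPM + 1) value was related to the mean log2(CPM + 1) of 5 smooth muscle and of 8 urothelium markers, 70 relations in all, with Benjamini-Hochberg adjustment over them. With smooth muscle, HOXA11 gave Pearson's r of 0.905 (permutation p 1e-05, the smallest that 100000 resamples can give, adjusted p 0.00035) and Spearman's rho of 0.868 (permutation p 1e-04, adjusted p 0.0035). HOXD13 gave r of 0.881 (permutation p 9e-05, adjusted p 0.0021) and rho of 0.965 (permutation p 1e-05, adjusted p 0.0007). Both genes were high in muscle-rich libraries and low in muscle-poor ones.

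HOXD9 gave r of 0.768 (permutation p 0.00093, adjusted p 0.0111) and rho of 0.851 (permutation p 0.00024, adjusted p 0.0049). HOXD10 gave r of 0.779 (permutation p 0.00095, adjusted p 0.0111) and rho of 0.688 (permutation p 0.00818, adjusted p 0.0573). The lower-numbered HOXA7 passed by rho alone, with rho of 0.736 (permutation p 0.00382, adjusted p 0.0446) and r of 0.667 (permutation p 0.0114, adjusted p 0.101). HOXA4 and HOXA5 had rho of 0.697 and 0.692 (adjusted permutation p 0.0573 for each) and did not pass. HOXA13 lies next to HOXA11 but gave r of 0.343 (permutation p 0.231, adjusted p 0.394) and rho of 0.411 (permutation p 0.148, adjusted p 0.304), which did not pass; whether it differs from HOXA11 in this was not tested. With urothelium, HOXD1 gave r of 0.933 (permutation p 1e-05, adjusted p 0.00035) and rho of 0.842 (permutation p 0.00028, adjusted p 0.0049).

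Without the 2 libraries farthest from the median of the marker mean, r was 0.835 for HOXA11, 0.909 for HOXD13, 0.790 for HOXD10, 0.753 for HOXD9 and 0.854 for HOXD1, each past the adjusted threshold. Spearman's rho passed there for HOXD13 alone of these (0.958, adjusted permutation p 0.0035), and did not for HOXA11 (0.790, adjusted p 0.0859), HOXD9 (0.783, adjusted p 0.0859), HOXD10 (0.657, adjusted p 0.262) or HOXD1 (0.748, adjusted p 0.118). The arms hold too few native libraries, 5, 5 and 4, for a correlation inside each. With the mean of each arm removed from both measures r was 0.927 for HOXA11, 0.875 for HOXD13, 0.790 for HOXD10 and 0.949 for HOXD1, and 0.752 for HOXD9 with an adjusted permutation p of 0.123. Muscle and urothelium were parts of the same pieces of tissue, so these relations share each library's makeup.

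**Figure D5:**
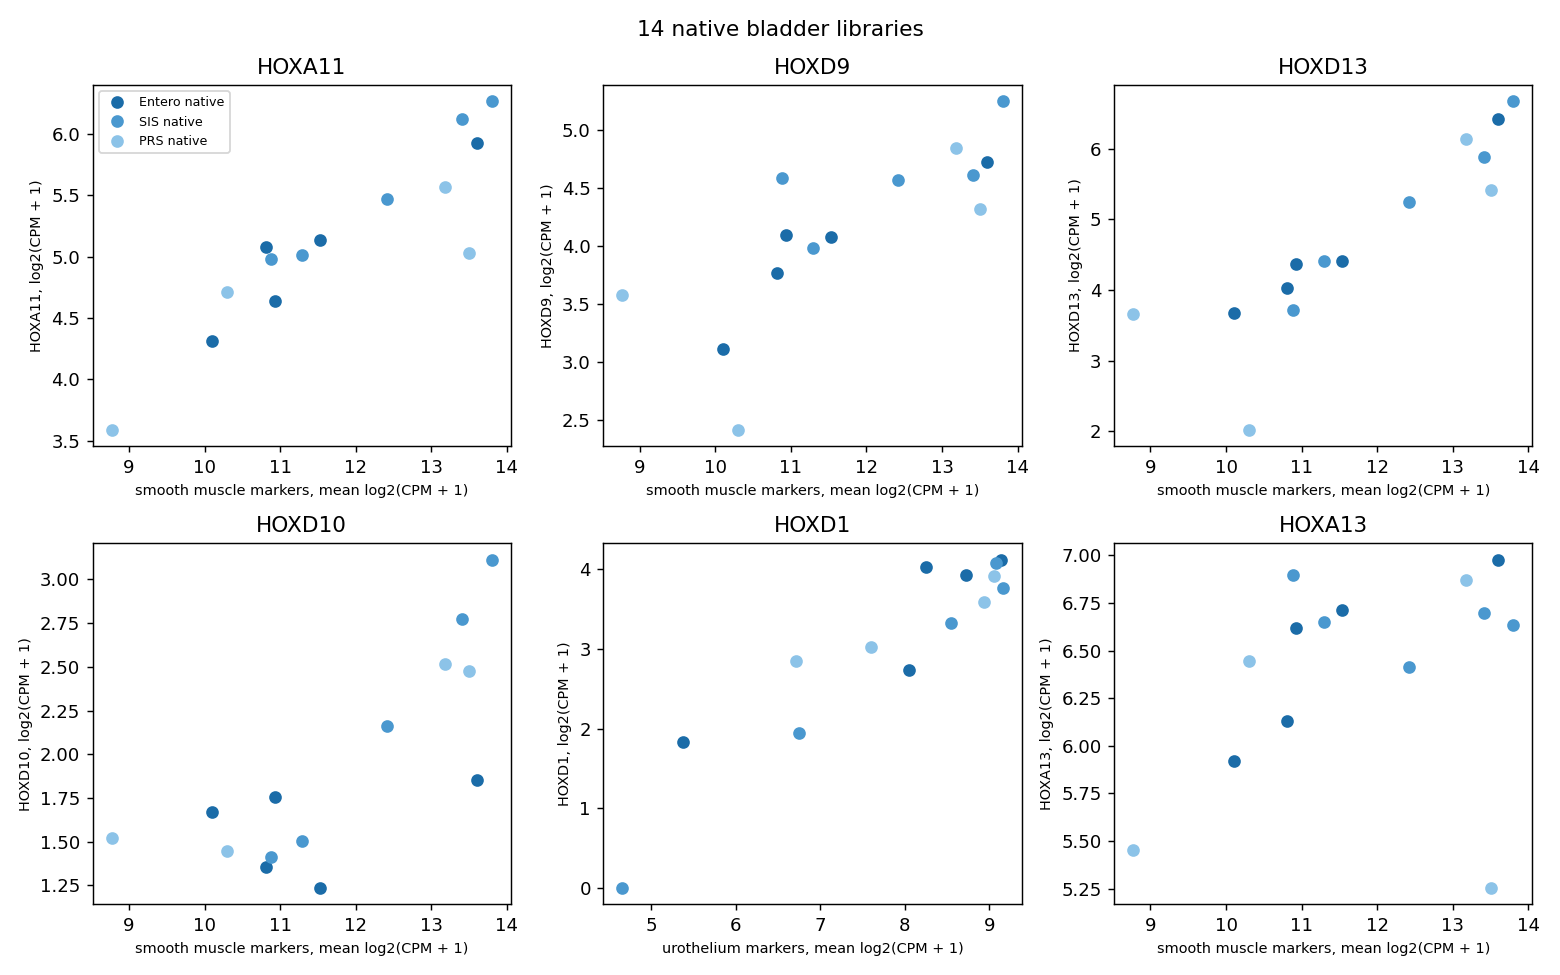
HOX gene levels against marker means in the 14 native bladder libraries, both as log2(CPM + 1), with colours for the 3 arms. HOXA11, HOXD9, HOXD13 and HOXD10 climb with smooth muscle markers (r of 0.905, 0.768, 0.881 and 0.779), HOXA13 has r of 0.343, and HOXD1 climbs with urothelium markers (0.933).

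Genes that act with or on the HOX clusters were followed in fixed lists for ileum against native bladder. Caudal-type factors such as CDX1 and CDX2 switch on HOX genes in the embryo and specify intestinal epithelium. CDX2 rose from 0.209 ± 0.187 CPM in native bladder to 139 ± 38.3 CPM in ileum (SD, n = 5 each, edgeR adjusted p 7.28e-06) and CDX1 from 1.04 ± 0.62 to 251 ± 89.2 CPM (edgeR adjusted p 0.000147). MNX1, a homeobox gene of motor neurons and pancreas, rose from 2 reads in native bladder to 6.03 ± 2.81 CPM in ileum (edgeR adjusted p 0.0027). EVX1 and EVX2, homeobox genes that flank the 5′ ends of HOXA and HOXD, fell from 6.99 ± 4.27 and 1.40 ± 1.93 CPM to 0 reads, at least 319-fold and 60.7-fold lower by the limit of 3 counts over the ileum group. In that list all 5 tested of 9 passed, 3 higher and 2 lower, where 15% of all genes tested passed.

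Among 11 tested neighbours of the clusters 0 were higher and 3 lower, EVX1, EVX2 and SKAP2, an adaptor protein gene beside HOXA that fell from 45.5 ± 21.8 to 12.6 ± 4.56 CPM (edgeR adjusted p 0.0099). CALCOCO1, a neighbour of HOXC, had a log2 fold change of -0.89 (edgeR adjusted p 0.0680). Of 9 TALE homeodomain cofactors, which bind DNA together with HOX proteins, 1 was higher and 2 lower. Over all genes tested 7.72% were higher and 7.33% lower. PBX4 rose by 1.58 on the log2 scale (edgeR adjusted p 0.0190), while PKNOX1 fell by 1.24 (adjusted p 0.0067), and PBX2 had -0.70 (adjusted p 0.114).

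Retinoic acid induces HOX genes from the 3′ end of a cluster onward. Of 13 genes of this pathway 1 was higher (7.69%) and 2 lower (15.4%) in ileum, where 7.72% and 7.33% of all genes tested were. ALDH1A1, an enzyme that makes retinoic acid, rose from 199 ± 103 to 1473 ± 431 CPM (edgeR adjusted p 0.0011). The receptors RARG and RARB fell from 96.1 ± 25.9 to 14.7 ± 9.85 CPM and from 14.5 ± 5.23 to 1.72 ± 1.3 CPM (edgeR adjusted p 3.39e-05 and 0.0017), while RXRA had -0.93 on the log2 scale (adjusted p 0.130). Polycomb proteins hold HOX genes silent. Of 16 tested, PHC1 alone passed, 6.25% lower where 7.33% of all genes tested were. It fell from 50.8 ± 7.39 to 17.8 ± 11.2 CPM (edgeR adjusted p 0.0057). CBX7 (-1.29, edgeR adjusted p 0.0502), CBX2 (1.41, adjusted p 0.0775) and EZH2 (1.74, adjusted p 0.0954) did not pass. DESeq2, which called 20.2% of all genes in this comparison, gave 2 higher and 2 lower in the Polycomb list and the same counts as edgeR in the others.

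Trithorax proteins and H3K27 demethylases keep HOX genes active, and 0 of 11 passed in edgeR or in DESeq2, with 0 at an unadjusted edgeR p under 0.05. In edgeR 15% of all genes tested passed, and 4897 of 17177 had an unadjusted p under 0.05. The smallest p of this list belonged to KDM6B (0.77 on the log2 scale, edgeR adjusted p 0.260), KMT2C (-0.62), ASH2L (-0.37) and KMT2A (-0.57). In regenerated tissue against native bladder no gene of these lists passed in either arm in edgeR. The medians of the lists for ileum were -0.70 for the cofactors, -0.64 for the neighbours, -0.72 for retinoic acid, -0.13 for Polycomb and -0.03 for trithorax.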

How the data were processed

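RNA sequencing of 28 libraries gave 1 table of read counts per gene, which the authors deposited without normalisation. Per the labels' protocols, RNA came from small pieces of tissue, poly-A RNA was selected, and directional dUTP libraries were sequenced in paired ends. The submitters' processing notes name featureCounts 1.5.0-p3, HISAT2 2.0.5 and StringTie 1.3.3b. The sources used here do not give the genome build, annotation and strand setting, and no coordinates appear. All 28 sample columns were matched to samples by their names. Gene lengths from the table entered only the levels per kilobase and the position index.

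The test was that of edgeR 4.0.16 under R 4.3.3 (filterByExpr, minimum count 10, 17177 genes kept, TMM scaling, 1 quasi-likelihood model of all 28 libraries with 6 group terms, Benjamini-Hochberg adjustment over all genes tested, threshold 0.05). Levels are CPM on TMM-scaled library sizes. The standard error is the size of the log2 fold change divided by the root of F, and 95% intervals rest on it; it is approximate where a group has few reads. Bounds for groups without reads use unscaled totals and 3 counts over the group, and cover counting error only. Permutation tests of correlations were two-sided. Depth and its limit are given with the results.

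The HOX genes, marker lists and pathway lists were chosen with earlier results of these data known, and support nothing by their choice. Per cluster, values by library are given for the gene highest in native bladder and the genes with the largest rise and fall in ileum, and further genes where they passed or border the number at which the direction changed. Some genes of these lists are not reported here. From each pathway list the genes named are among the 4 with the smallest p for ileum. Marker lists covered smooth muscle, urothelium, intestinal epithelium, fibroblasts, endothelium, blood cells and nerve.

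Native and graft libraries of an animal are paired by the animal codes in the labels, a pairing that the main model did not use. Their deviations from the group means correlated at -0.30 to 0.71 over 14 animals, above 0.1 in 8. Alternatives were DESeq2 1.42.0, other scaling, no filter, only the compared groups, the animal as a block, and leaving out each library. On simulated counts for the ileum comparison with 17177 genes, the model recovered 41.5% of genes changed by a log2 of 2, 81.8% at 4 and 93.8% at 8, with 6 false calls.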

Additional observations from a re-analysis of the deposited data

Results flagged for a closer look

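Single libraries stood apart from the rest of their group for 10 of 114 combinations of a gene or the position index with a group. The rule was Dixon's criterion at 95%, which chance meets in about 1 of 20 groups of normally spread values. Where only 1 library of a group had reads the criterion is always met. That was so for HOXA11 in ileum and for HOXB9 in Entero and PRS native bladder. In the ileum, HOXA11 had 1.70 CPM in library 2 and 0 in the others, HOXC4 had 21.9 CPM in library 3 against 5.78 to 8.22 CPM, and the position index was 5.65 in library 3 against 6.19 to 6.36. In PRS regenerated tissue library 2 had 98.4 CPM of HOXA13 against 52.6 to 58.2 CPM, and 0 CPM of HOXB13 against 17.2 to 27.7 CPM. HOXD10 had 0.659 CPM in SIS regenerated library 5 against 1.87 to 2.58 CPM. HOXD13 had 84.7 CPM in Entero native library 4 against 11.7 to 20.3 CPM. HOXB9 had 3.32 CPM in Entero native library 1 and 0 in the others, 0.390 CPM in PRS native library 4 and 0 in the others, and 0.561 CPM in SIS regenerated library 2 against 0 to 0.109 CPM.

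The change from native bladder to graft differed between arms by the edgeR test of the difference itself. For SIS minus ileum graft the log2 differences were 5.80 for HOXA11 (adjusted p 0.0020), 8.65 for HOXA13 (2.26e-07), -4.90 for HOXC6 (0.0013), -5.75 for HOXC8 (0.000366), 7.68 for HOXD10 (0.000131) and 10.64 for HOXD13 (0.000818). For PRS minus ileum graft they were 3.96 for HOXA10 (adjusted p 0.0302), 6.72 for HOXA11 (0.0021), 9.23 for HOXA13 (5.02e-07), -3.44 for HOXC6 (0.0390), -5.22 for HOXC8 (0.0026), 9.33 for HOXD10 (4.45e-05) and 12.05 for HOXD13 (0.000707) in edgeR. The fitted differences of HOXD10 and HOXD13 rest on groups without reads and give no bound.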

How the results depend on the processing

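Of 911 fold changes recomputed for 56 combinations of a HOX gene and a comparison under the alternatives run, 805 stayed on their side of the threshold, 106 lost their call and 0 reversed. With only the 2 groups compared in the fit, 5 of the 11 genes lower in ileum passed, 5 of the 10 higher in SIS regenerated tissue than in ileum and 4 of the 9 in PRS, with fewer samples to estimate the spread. The animal as a replicate block left 1 of the 2 genes with a lower change in PRS than in ileum, and among the calls named above it changed those given beside their results and no other. DESeq2 gave 7 genes with a higher and 4 with a lower change in SIS than in ileum, against 4 and 2, while its calls over all genes were 902 and 865 against 616 and 511; the cause was not tested.

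Leaving out each library in turn gave 3 to 5 genes higher and 8 to 11 lower in ileum, 8 to 11 and 2 to 5 for SIS regenerated tissue against ileum, 7 to 9 and 2 for PRS, 4 to 6 and 2 to 3 for the change in SIS, and 4 to 6 and 1 to 2 for the change in PRS. It gave 0 for regenerated against native tissue and between native groups. The ileum call was lost for HOXA9 without native library 3, 4 or 5 or ileum library 2, 3 or 4, and for HOXB13 without native 3 or 5 or ileum 1, 3, 4 or 5. It was lost for HOXC4 without any native library or ileum 3, for HOXC5 without native 1, 2 or 3 or ileum 3, and for HOXD4 without native 1 or ileum 2, 4 or 5, with adjusted p up to 0.199 for HOXD4 and 0.105 for the others. The count of genes higher in ileum fell to 3 without native library 2 or 3 or ileum library 3, and that of genes lower in SIS regenerated tissue than in ileum to 2 without regenerated library 1, 3 or 5. The count of genes with a lower change in PRS was 1 without Entero native 1, 2 or 5, ileum 2, 3 or 5, PRS native 2 or 4, or PRS regenerated 1 or 2.

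The mean position index ran from 6.08 to 6.26 in ileum, 7.81 to 8.43 in Entero native, 8.29 to 8.55 in SIS native, 7.76 to 8.0 in SIS regenerated, 7.75 to 8.23 in PRS native and 7.64 to 8.08 in PRS regenerated tissue without 1 library each. With log weights it was 7.12 in Entero native, 7.21 in SIS native, 6.95 in SIS regenerated, 7.17 in PRS native and 7.07 in PRS regenerated tissue. Without length scaling it was 9.05, 8.33 and 8.83 in SIS native, SIS regenerated and PRS native tissue. Without HOXA10, a choice made after seeing the data, it was 7.83, 7.01 and 7.19 in SIS native, SIS regenerated and PRS regenerated tissue. Of the 2 relations with urothelium that passed by r and by rho, 1 passed by r and 0 by rho without the 2 farthest libraries. Genes below about 1 CPM are limited by depth.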

Other observations

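Noncoding transcripts of the HOX clusters, which were chosen after their values were seen, are listed in the table as fragments. All 5 tested fragments of HOXA11-AS1, the antisense transcript of HOXA11, fell in ileum against native bladder in edgeR, 2 of them with reads in ileum (log2 fold changes of -6.05 and -6.15) and 3 with none. The fragment listed as HOXA11-AS1_5 had 10.3 ± 1.70 CPM in native bladder (SD, n = 5) and 0 reads in ileum, at least 470-fold lower by the limit of 3 counts over the ileum group (edgeR adjusted p 8.12e-09). It had 9.78 ± 5.49 CPM in SIS and 9.24 ± 4.36 CPM in PRS regenerated tissue. HOTTIP, a transcript at the 5′ end of HOXA, gave 3 of 3 tested fragments lower in ileum, and HOTTIP_3 went from 1.10 ± 0.30 CPM to 0 reads, at least 50.0-fold lower (edgeR adjusted p 0.0087). Fragments of HOTAIRM1, which lies at the 3′ end of HOXA, gave 0 of 4 calls. HOTAIR, a transcript of the HOXC cluster, had 0 reads in ileum in all 4 tested fragments, and 0 of 4 passed.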
